A study of Mus musculus with 12 samples.

Results

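The genes described here build ribosomes: 43 symbols for factors that transcribe, modify, cut and assemble ribosomal RNA in the nucleolus. The list is one of names grouped by function, with no threshold on the measured values, but it was drawn up with earlier results of these data known. Each gene was represented by its probe set with the highest mean over all 12 arrays. Of the 43 genes, 42 had a probe set assigned to 1 gene, out of 18193 genes represented in the same way. Mrto4 was not analysed here, because its probe set is annotated to several genes. All 42 passed the filter on low values (log2 of at least 5 on at least 2 arrays) that left 15781 genes for testing, and all 42 lay above that level on every array.

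The arrays profiled bipotential mouse embryonic liver (BMEL) cells, lines from wild-type embryos whose cells can mature into either hepatocytes or biliary cells. The independently isolated lines 9A1 and 14B3 both came from dpc 14 livers (14 days post coitum) of a CBA/J x C57Bl/6J cross, so culture changes were measured in 2 lines of 1 background. Each line was sampled in basal culture, after 1 day as aggregates and after 5 days as aggregates, with 2 biological replicates per line and culture. Values are the deposited log2 expression levels of Affymetrix mouse 430 2.0 probe sets, which can be compared between arrays for 1 probe set but not between probe sets. The labels name no basal culture kept for matching times, so aggregation and time in culture cannot be told apart.

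Ribosome production starts in the nucleolus, where RNA polymerase I transcribes the ribosomal DNA into a long precursor. Box C/D and box H/ACA ribonucleoproteins then guide its methylation and pseudouridylation, and the small subunit processome and the large subunit assembly factors cut and fold it around the ribosomal proteins. It is among the most costly activities of a growing cell, is high in dividing progenitors, and many of its genes are known targets of the transcription factor MYC.

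MYC and its partner MAX bind the E-box CACGTG, so the start sites of the genes were searched for these letters, which read the same on both strands. RefSeq promoter entries on GRCm38.p6, running from 250 bases before to 50 bases after the start, were matched for 37 of the 42 genes. The letters occurred in 8 of the 37 (21.6%), in 10.7% of the tested genes with an entry and in 8.09% of all 27025 genes with an entry. They were found for Rrn3, Wdr43, Utp20, Ltv1, Tsr1, Pes1, Nop2 and Mybbp1a, which cover polymerase I transcription and both subunits. No box C/D or box H/ACA gene with an entry had a match. Of the gene lists described below, further small and large subunit factors had shares of 22.9% and 20.5%. Other polymerase I genes and RNA exosome genes each had 8.33%. A match describes the letters only, and no binding was measured. The following 5 stretches are shown because the letters lie near the start of a gene that fell in aggregates. Each runs from 100 bases before the start to 30 after it on the plus strand, with CACGTG in capitals, and lies at chr16:13780599-13780728 (Rrn3), chr17:71616115-71616244 (Wdr43), chr11:74897980-74898109 (Tsr1), chr11:3963875-3964004 (Pes1) and chr6:125131783-125131912 (Nop2).
Rrn3: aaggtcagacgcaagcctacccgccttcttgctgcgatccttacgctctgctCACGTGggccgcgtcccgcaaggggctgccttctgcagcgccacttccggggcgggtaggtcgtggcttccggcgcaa
Wdr43: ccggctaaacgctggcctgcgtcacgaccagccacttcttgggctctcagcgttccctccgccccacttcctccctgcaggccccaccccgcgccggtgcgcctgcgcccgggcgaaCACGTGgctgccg
Tsr1: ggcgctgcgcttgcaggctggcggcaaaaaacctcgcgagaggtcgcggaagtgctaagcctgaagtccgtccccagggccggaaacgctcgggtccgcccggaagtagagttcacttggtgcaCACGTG
Pes1: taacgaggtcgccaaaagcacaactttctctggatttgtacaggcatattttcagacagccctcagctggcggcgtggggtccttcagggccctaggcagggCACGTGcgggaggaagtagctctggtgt
Nop2: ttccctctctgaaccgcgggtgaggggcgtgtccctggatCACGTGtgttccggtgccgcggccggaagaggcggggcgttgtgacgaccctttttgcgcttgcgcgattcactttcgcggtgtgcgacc
The first base of the E-box shown lay at -48 in Rrn3, +18 in Wdr43, +25 in Tsr1, +3 in Pes1 and -60 in Nop2, counted from the start at +1. Rrn3 had a second match at -215, outside the stretch shown.

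Of 8 BMEL epithelial markers on the table, those named here were picked after their values were seen and were high on every array. The whole list went down to 6.86. At 5 days 2 of the 8 were lower and 3 higher than basal (log2 -1.65 to 4.58), beside 18.5% and 16.9% over all genes. The keratins Krt8, Krt18 and Krt19 were at 12.44 or above, Cdh1, the epithelial cadherin, at 11.45 or above, and the liver factor Hnf4a at 10.98 or above. Of 8 blood cell markers on the table, the pan-leukocyte gene Ptprc stayed between 4.48 and 4.72, while Csf1r rose in aggregates and reached 12.02. The endothelial markers reached at most 7.65 (Cdh5) and the stellate cell markers at most 7.33 (Des). A pair of 9A1 arrays stood apart. The basal 9A1 array of replicate 1 had a mean hepatocyte marker level of 9.57 over 12 genes, where its 3 fellow basal arrays had 6.08 to 6.49 and the day 5 arrays 9.63 to 11.25. Its mean over 22 proliferation genes, 10.23, was the lowest of the basal arrays but above all day 1 arrays (up to 8.98). The hepatocyte marker level goes against its label as a basal culture, while the proliferation level stays above that of every aggregate array. The array was kept under that label, and whether the label is right was not tested. The array correlated with its replicate at 0.914 over all genes, and the day 1 pair of 9A1 at 0.936, whereas the pairs of 14B3 correlated at 0.991 to 0.996. On both of these arrays the ribosome biogenesis genes were low for their culture, so results without them are given beside many of the main results, though not all.

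The mean level of the 42 genes was lower in aggregates than in basal culture, and lower at day 5 than at day 1. Their mean log2 level was 9.77 and 10.54 in basal 9A1 and 10.80 and 10.72 in basal 14B3. After 1 day it was 9.55 and 8.98 in 9A1 and 9.57 and 9.47 in 14B3. After 5 days it was 8.80 and 8.44 in 9A1 and 8.90 and 8.87 in 14B3. The basal arrays therefore lay above all day 1 arrays, and the day 1 arrays above all day 5 arrays, with basal 9A1 replicate 1 lowest among the basal arrays and day 1 9A1 replicate 2 lowest at day 1. RNA per cell was not measured, and the array normalization brings the arrays to a similar distribution, so these are shares of the RNA applied. In RNA from whole cultures, a smaller number of cells with active nucleoli and less of these transcripts in each cell cannot be told apart.

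**Figure D1:**
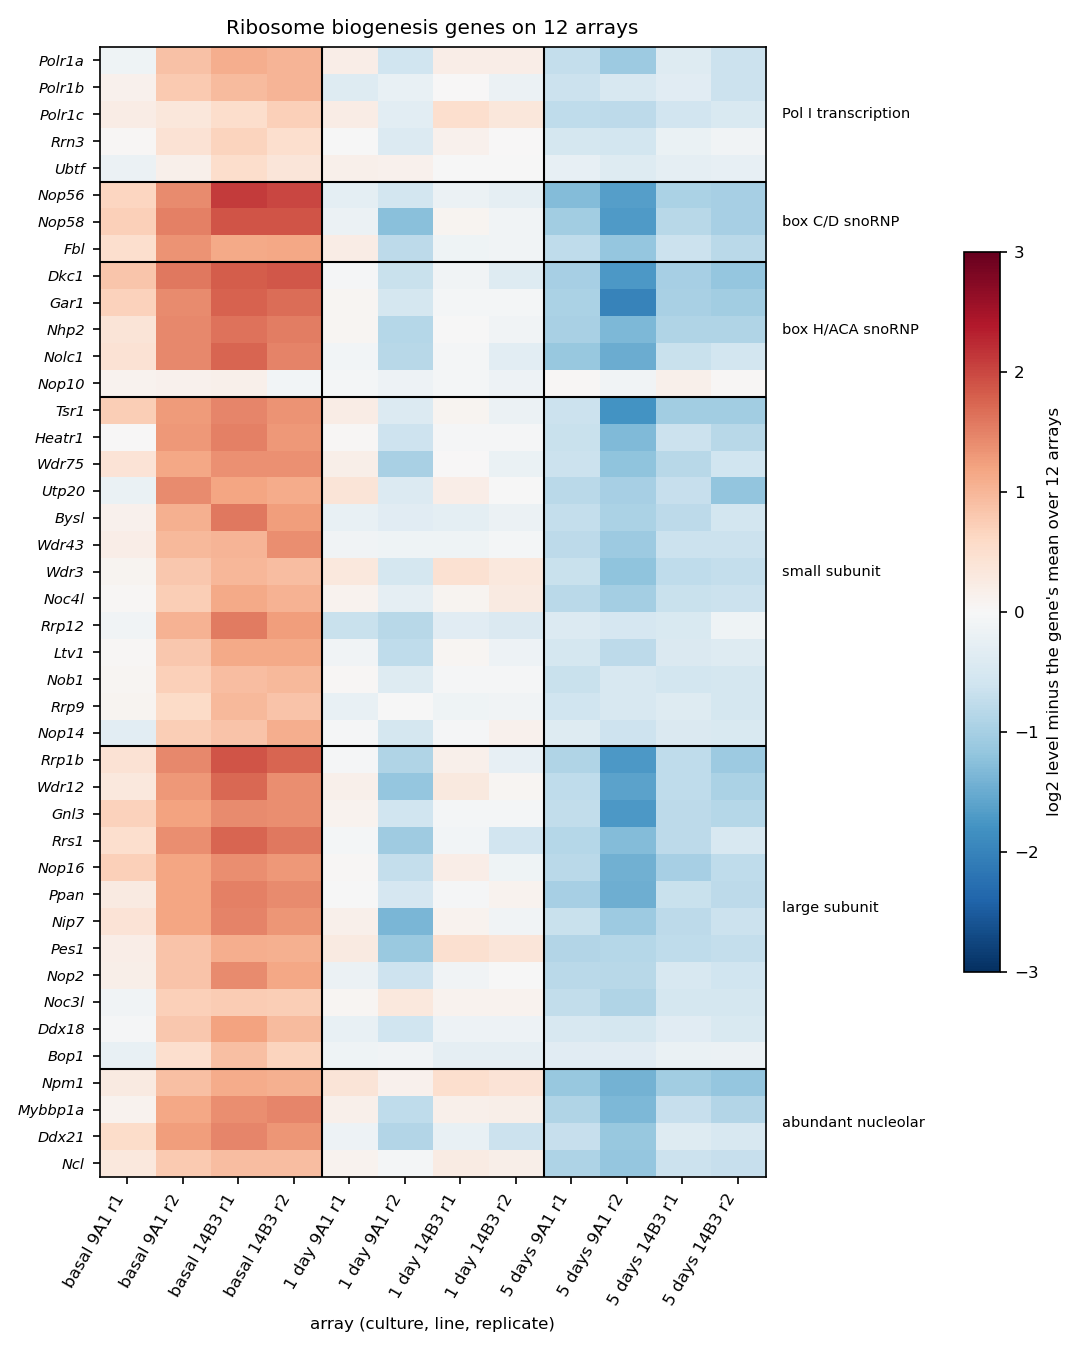
Each row is 1 of the 42 genes, ordered by role, and each column 1 of the 12 arrays. Colour gives the log2 level minus that gene's mean over the 12 arrays. The basal columns are high and the day 5 columns low in nearly every row except Nop10, and the first basal column, 9A1 replicate 1, is paler than the other 3.

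In the limma fit, with the 2 lines weighted equally and Benjamini-Hochberg adjustment over 15781 genes, 41 of the 42 genes were lower at 5 days than in basal culture (adjusted p under 0.05) and 0 were higher (0 also at an unadjusted p under 0.05). Over all genes tested, 18.5% were lower and 16.9% higher. The median log2 difference of the 42 was -1.78, with a range of -2.77 to -0.05, against 0.01 over all genes. At least a 2-fold fall was seen for 38 of them and at least a 4-fold fall for 14. All 4 day 5 arrays lay below all 4 basal arrays for 40 of the 42, against 20.3% of all genes, with Nop10 and Bop1 the exceptions. The 41 calls held with any 1 array left out.

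After 1 day, 31 of the 42 were already lower than in basal culture and 0 higher (0 also at an unadjusted p under 0.05), beside 8.80% lower and 5.25% higher over all genes. The median difference was -1.12, with a range of -1.87 to -0.14, against 0.03 over all genes, and 25 genes had fallen at least 2-fold. The groups did not overlap for 26 of the 42, against 8.90% of all genes. Without basal 9A1 replicate 1 the count was 39, and without both arrays that stood apart it was also 39. It fell to 19 when either basal 14B3 replicate 1 or day 1 14B3 replicate 2 was left out, and 18 genes passed with any 1 array left out. The other 13 calls were each lost when at least 1 of basal 14B3 replicate 1 and day 1 14B3 replicate 2 was dropped, and some also with other arrays dropped: Fbl, Heatr1, Wdr75, Rrp9, Noc4l, Ltv1, Nob1, Tsr1, Bop1, Wdr12, Ddx18, Nip7 and Mybbp1a. Conversely, 9 of the genes that had not passed did so without basal 9A1 replicate 1 or day 1 9A1 replicate 1.

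Between day 1 and day 5 a further 15 of the 42 fell and 0 rose (0 also at an unadjusted p under 0.05), beside 10.0% lower and 11.7% higher over all genes. The median difference was -0.71, against -0.04 over all genes, and 40 of the 42 estimates were negative. The 4 day 5 arrays lay below the 4 day 1 arrays for 21 genes, against 12.1% of all genes. This count depended most on single arrays: it was 29 without basal 9A1 replicate 1, basal 9A1 replicate 2 or day 1 9A1 replicate 2, and 37 without both arrays that stood apart. It was 5 or 6 without either day 1 14B3 array, either day 5 14B3 array or day 5 9A1 replicate 2. The calls of 5 genes, Polr1c, Nop56, Noc4l, Npm1 and Ncl, held with any 1 array left out. Each culture's 4 arrays enter 2 of the 3 comparisons, so the 3 sets of values are not independent. Set side by side, 20 genes passed in both comparisons with basal culture alone, 11 passed in all 3, 6 passed only at 5 days against basal, 4 passed at 5 days against both, and Nop10 passed in none.

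**Figure D2:**
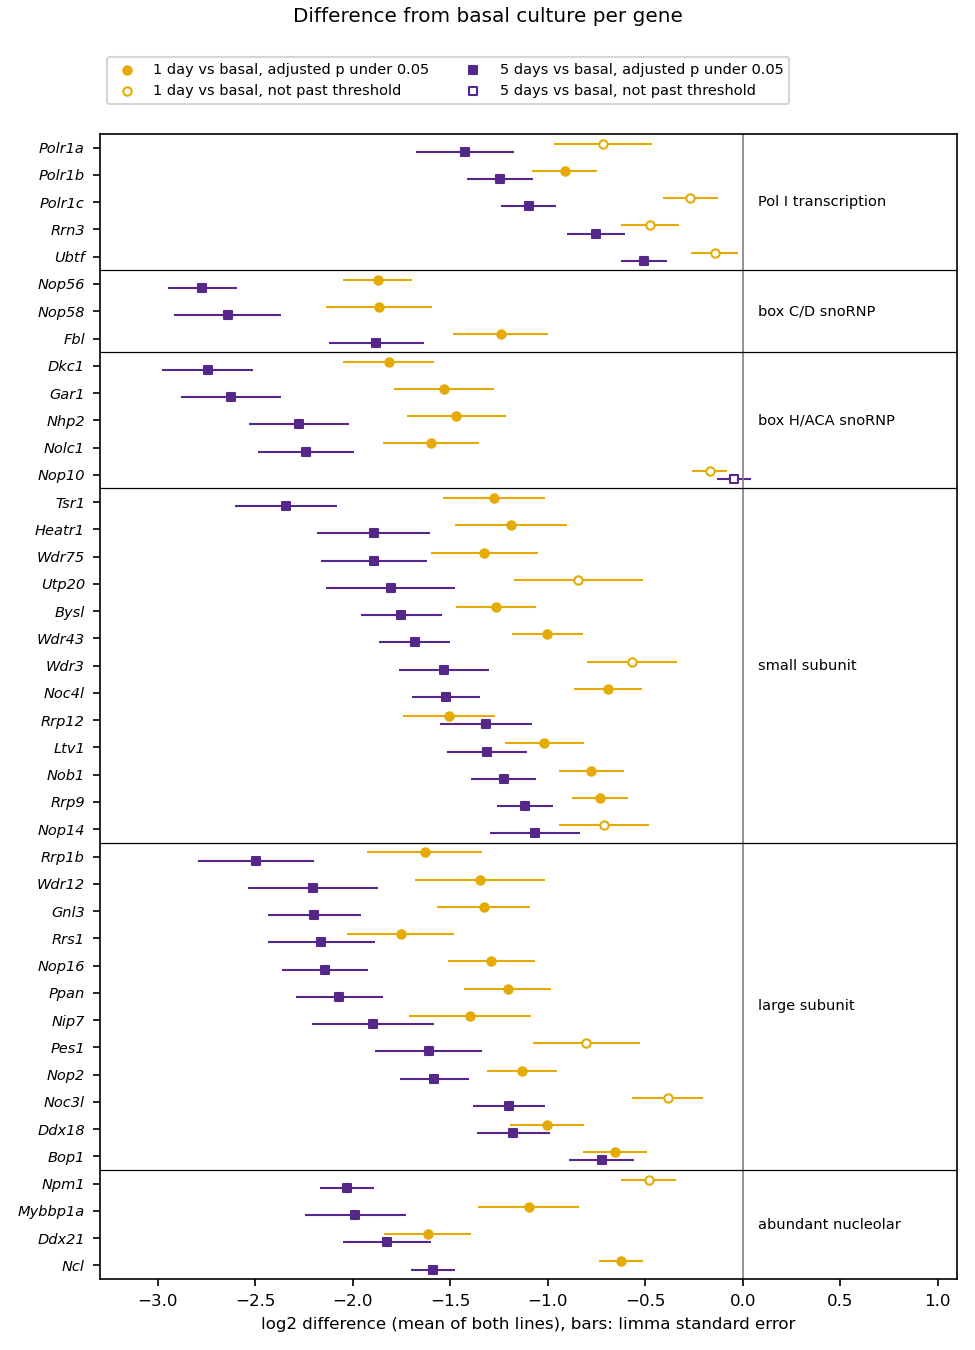
Points give the log2 difference of each of the 42 genes, grouped by role, for 1 day against basal and for 5 days against basal, with bars for the standard error of the fit (4 arrays against 4). All points lie left of 0, and the 5 day points lie further left than the 1 day points except for Rrp12 and Nop10. Filled symbols passed the test, and the box C/D and box H/ACA genes reach the largest falls.

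The polymerase I genes had the smallest median falls of the 6 roles at both times. All 5 were lower at 5 days, with a median difference of -1.10, but only Polr1b passed at 1 day, where the median was -0.48. Polr1a (probe set 1417775_at) encodes the largest subunit of RNA polymerase I. Its log2 level was 8.03 and 9.04 in basal 9A1, 9.25 and 9.18 in basal 14B3, 8.36 and 7.56 in day 1 9A1, 8.36 and 8.35 in day 1 14B3, 7.43 and 7.08 in day 5 9A1, and 7.77 and 7.52 in day 5 14B3. Day 5 lay below basal on every array, whereas day 1 overlapped basal because of basal 9A1 replicate 1. The fall was 2.68-fold at 5 days (log2 -1.42, SE 0.25, adjusted p = 0.00225). At 1 day the difference was -0.72 (adjusted p = 0.0967), and it moved with single 9A1 arrays. It was -0.97 without basal 9A1 replicate 1 (adjusted p = 0.0111) and -0.92 without day 1 9A1 replicate 1 (adjusted p = 0.027), but -0.46 without basal 9A1 replicate 2 (adjusted p = 0.213) and -0.52 without day 1 9A1 replicate 2 (adjusted p = 0.198).

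Polr1b (1416126_at), the second largest subunit, was the earliest of these genes to fall. It was at 8.57 and 9.21 in basal 9A1, 9.37 and 9.45 in basal 14B3, 8.04 and 8.21 in day 1 9A1, 8.44 and 8.26 in day 1 14B3, 7.79 and 7.95 in day 5 9A1, and 8.09 and 7.79 in day 5 14B3. All aggregate arrays lay below all basal arrays. It fell 1.88-fold at 1 day (log2 -0.91, SE 0.17, adjusted p = 0.00839) and 2.37-fold at 5 days (adjusted p = 0.000621).

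Ubtf (1453097_a_at), the upstream binding factor that opens ribosomal DNA chromatin, moved least in the group. Its levels were 9.78 and 10.11 in basal 9A1, 10.47 and 10.31 in basal 14B3, 10.11 and 10.09 in day 1 9A1, 9.95 and 9.94 in day 1 14B3, 9.70 and 9.57 in day 5 9A1, and 9.67 and 9.70 in day 5 14B3. Day 1 overlapped basal, and day 5 lay just below it. The 5 day fall was 1.42-fold (log2 -0.51, SE 0.12, adjusted p = 0.0091), and the 1 day difference was -0.14 (adjusted p = 0.527). Its second probe set gave -0.61 at 1 day with an adjusted p of 0.0471 when each probe set was tested on its own. Polr1c, a subunit shared by polymerases I and III, fell late: it differed by -0.27 at 1 day (adjusted p = 0.272) and by -1.10 at 5 days (adjusted p = 0.000483). Rrn3, the initiation factor TIF-IA, has 1 of its 2 E-box matches shown above. It fell 1.69-fold at 5 days (adjusted p = 0.00391) after a difference of -0.48 at 1 day (adjusted p = 0.0658).

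All 3 box C/D proteins fell at 1 day and at 5 days, with median differences of -1.86 and -2.64, the largest of the 6 roles. Nop56 (1426533_at), a core scaffold of the particle, was at 10.57 and 11.34 in basal 9A1, 12.03 and 11.94 in basal 14B3, 9.62 and 9.37 in day 1 9A1, 9.74 and 9.66 in day 1 14B3, 8.62 and 8.27 in day 5 9A1, and 8.97 and 8.93 in day 5 14B3. The 3 cultures did not overlap. It had the largest fall of all 42 genes in both comparisons with basal culture, 3.66-fold at 1 day (log2 -1.87, SE 0.18, adjusted p = 0.000446) and 6.83-fold at 5 days (log2 -2.77, SE 0.18, adjusted p = 3.04e-05). It fell again from day 1 to day 5 by 0.90 on the log2 scale (adjusted p = 0.0076).

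Nop58 (1450986_at), the partner of Nop56 in the scaffold, was at 10.35 and 11.15 in basal 9A1, 11.51 and 11.52 in basal 14B3, 9.46 and 8.38 in day 1 9A1, 9.71 and 9.52 in day 1 14B3, 8.59 and 7.92 in day 5 9A1, and 8.80 and 8.64 in day 5 14B3. Every aggregate array lay below every basal array, but day 1 and day 5 overlapped through day 1 9A1 replicate 2. The falls were 3.64-fold at 1 day (adjusted p = 0.00307) and 6.25-fold at 5 days (adjusted p = 0.000177). From day 1 to day 5 the difference was -0.78 (adjusted p = 0.0743), and single arrays moved it: it was -1.05 without day 1 9A1 replicate 2 (adjusted p = 0.0144) and -0.51 without day 1 9A1 replicate 1 (adjusted p = 0.135). It also passed without either basal 9A1 array (adjusted p = 0.0413 and 0.0416).

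Fbl (1416685_s_at), the methyltransferase fibrillarin, was at 11.48 and 12.32 in basal 9A1, 12.09 and 12.12 in basal 14B3, 11.17 and 10.18 in day 1 9A1, 10.84 and 10.85 in day 1 14B3, 10.20 and 9.81 in day 5 9A1, and 10.32 and 10.15 in day 5 14B3. Again basal lay above all aggregates. It fell 2.36-fold at 1 day (log2 -1.24, SE 0.24, adjusted p = 0.0109) and 3.68-fold at 5 days (log2 -1.88, adjusted p = 0.000501).

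Of the 5 box H/ACA genes, 4 fell at both times and Nop10 did not. Dkc1 (1438016_at) encodes dyskerin, the pseudouridine synthase, which also binds telomerase RNA. It was at 10.30 and 11.05 in basal 9A1, 11.29 and 11.33 in basal 14B3, 9.44 and 8.81 in day 1 9A1, 9.36 and 9.10 in day 1 14B3, 8.48 and 7.75 in day 5 9A1, and 8.47 and 8.31 in day 5 14B3. The cultures were separate on all arrays. Dkc1 fell 3.52-fold at 1 day (log2 -1.82, SE 0.23, adjusted p = 0.00172), 6.70-fold at 5 days (log2 -2.74, adjusted p = 7.4e-05) and 1.90-fold between the aggregates (adjusted p = 0.0211).

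Gar1 (1418305_s_at), which joins the particle late, was at 10.02 and 10.75 in basal 9A1, 11.11 and 11.01 in basal 14B3, 9.41 and 8.81 in day 1 9A1, 9.27 and 9.28 in day 1 14B3, 8.40 and 7.35 in day 5 9A1, and 8.37 and 8.29 in day 5 14B3. The cultures were again separate, with day 5 9A1 replicate 2 well below the other day 5 arrays. The falls were 2.89-fold at 1 day (adjusted p = 0.00566) and 6.17-fold at 5 days (log2 -2.62, SE 0.26, adjusted p = 0.00014). Nhp2, the fourth core protein, fell 4.84-fold at 5 days (adjusted p = 0.000259), and Nolc1, the nucleolar phosphoprotein Nopp140 that binds these particles, fell 4.72-fold (adjusted p = 0.000235).

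Nop10 (1423210_a_at), the smallest core protein of the same particle, did not pass in any comparison. It was at 12.32 and 12.35 in basal 9A1, 12.38 and 12.14 in basal 14B3, 12.18 and 12.08 in day 1 9A1, 12.18 and 12.08 in day 1 14B3, 12.26 and 12.12 in day 5 9A1, and 12.38 and 12.26 in day 5 14B3. All 3 cultures overlapped. The differences were -0.17 at 1 day (SE 0.09, adjusted p = 0.27) and -0.05 at 5 days (SE 0.09, adjusted p = 0.787). Its second probe set gave -0.21 and -0.06.

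All 13 small subunit genes fell at 5 days, with a median difference of -1.53, and 10 of them at 1 day, with a median of -1.0. Those that did not pass at 1 day were Nop14, Utp20 and Wdr3. Tsr1 (1455643_s_at), a GTPase-like factor of late cytoplasmic small subunit precursors, fell furthest. It was at 10.35 and 10.88 in basal 9A1, 11.08 and 10.97 in basal 14B3, 9.83 and 9.20 in day 1 9A1, 9.69 and 9.44 in day 1 14B3, 8.97 and 7.81 in day 5 9A1, and 8.56 and 8.57 in day 5 14B3. The cultures did not overlap, and the falls were 2.43-fold at 1 day (adjusted p = 0.0133) and 5.08-fold at 5 days (log2 -2.34, SE 0.26, adjusted p = 0.000249).

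Heatr1 (1424522_at), the homologue of yeast Utp10 that links polymerase I transcription with early cleavage, was at 8.49 and 9.78 in basal 9A1, 9.99 and 9.78 in basal 14B3, 8.52 and 7.87 in day 1 9A1, 8.45 and 8.45 in day 1 14B3, 7.81 and 7.17 in day 5 9A1, and 7.84 and 7.65 in day 5 14B3. Basal 9A1 replicate 1 stood at the day 1 level, and the other 3 basal arrays more than a log2 unit higher. The fall was 3.72-fold at 5 days (log2 -1.89, SE 0.29, adjusted p = 0.00107). At 1 day it was 2.28-fold (adjusted p = 0.0263), a call lost without day 1 9A1 replicate 2 (-1.03, adjusted p = 0.0617) or any 1 of the basal or day 1 14B3 arrays (adjusted p up to 0.106, without basal 14B3 replicate 1).

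Nop14 (1423991_at), a nucleolar processome protein, had the smallest 5 day fall of the small subunit genes. Its levels were 8.89 and 9.95 in basal 9A1, 10.08 and 10.31 in basal 14B3, 9.18 and 8.68 in day 1 9A1, 9.18 and 9.33 in day 1 14B3, 8.82 and 8.58 in day 5 9A1, and 8.79 and 8.77 in day 5 14B3. Day 5 lay narrowly below basal. The fall was 2.09-fold at 5 days (adjusted p = 0.0061). The 1 day difference was -0.71 (adjusted p = 0.0736), with -0.98 without basal 9A1 replicate 1 (adjusted p = 0.00311) and -0.84 without day 1 9A1 replicate 1 (adjusted p = 0.0373). It was -0.45 without basal 9A1 replicate 2 (adjusted p = 0.12) and -0.59 without day 1 9A1 replicate 2 (adjusted p = 0.151).

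The other small subunit genes fell by 1.11 to 1.89 on the log2 scale at 5 days. Wdr75 and Wdr43, WD-repeat proteins of the earliest processome module, fell 3.71-fold (adjusted p = 0.000835) and 3.21-fold (adjusted p = 0.000221). Bysl, needed for small subunit maturation, fell 3.37-fold (adjusted p = 0.000325), and Nob1, the endonuclease that makes the 3′ end of the small subunit rRNA, 2.34-fold (adjusted p = 0.000637). Ltv1, which escorts small subunit precursors out of the nucleus, fell 2.48-fold (adjusted p = 0.0012). Rrp9, a protein of the U3 particle, fell 1.66-fold at 1 day (adjusted p = 0.0111) and 2.17-fold at 5 days (adjusted p = 0.000496). The processome genes Wdr3 and Utp20 overlapped between basal and day 1 and were down 2.90-fold (adjusted p = 0.00102) and 3.50-fold (adjusted p = 0.00278) at 5 days. Noc4l, the partner of Nop14, fell 1.61-fold at 1 day (adjusted p = 0.032) and a further 1.78-fold to day 5 (adjusted p = 0.0104). Rrp12, an export factor, was the one gene here whose estimate was less negative at 5 days (-1.32, adjusted p = 0.00236) than at 1 day (-1.51, adjusted p = 0.00396), with a difference of 0.19 between them (adjusted p = 0.661).

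All 12 large subunit genes measured fell at 5 days, with a median difference of -1.98, and 10 of them at 1 day, with a median of -1.25. Pes1 and Noc3l did not pass at 1 day. Rrp1b (1456117_at), a nucleolar RRP1 homologue, was at 8.65 and 9.65 in basal 9A1, 10.11 and 9.97 in basal 14B3, 8.20 and 7.33 in day 1 9A1, 8.37 and 7.97 in day 1 14B3, 7.32 and 6.49 in day 5 9A1, and 7.45 and 7.14 in day 5 14B3. Every aggregate array lay below every basal array. The falls were 3.10-fold at 1 day (log2 -1.63, SE 0.30, adjusted p = 0.00775) and 5.64-fold at 5 days (log2 -2.50, SE 0.30, adjusted p = 0.000327).

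Wdr12, Pes1 and Bop1 form the PeBoW complex, which is needed to process the large subunit rRNA, and the 3 differed in size of fall. Wdr12 (1448646_at) was at 9.08 and 10.06 in basal 9A1, 10.49 and 10.15 in basal 14B3, 8.91 and 7.60 in day 1 9A1, 9.05 and 8.83 in day 1 14B3, 7.99 and 7.17 in day 5 9A1, and 8.0 and 7.81 in day 5 14B3. Day 5 lay more than a log2 unit below basal on every array. It fell 4.61-fold at 5 days (adjusted p = 0.00102) and 2.54-fold at 1 day (adjusted p = 0.0281). The 1 day call was lost without any 1 of 8 arrays: the 6 arrays of 14B3 (adjusted p up to 0.113, without basal 14B3 replicate 1), day 1 9A1 replicate 2 (-1.02, adjusted p = 0.0503) and basal 9A1 replicate 2 (-1.10, adjusted p = 0.0601).

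Bop1 (1423264_at) was at 9.21 and 9.95 in basal 9A1, 10.34 and 10.11 in basal 14B3, 9.32 and 9.33 in day 1 9A1, 9.18 and 9.17 in day 1 14B3, 9.11 and 9.09 in day 5 9A1, and 9.25 and 9.26 in day 5 14B3. All aggregate arrays were alike, and basal 9A1 replicate 1 lay among them. The falls were 1.57-fold at 1 day (log2 -0.65, SE 0.17, adjusted p = 0.0311) and 1.65-fold at 5 days (log2 -0.72, adjusted p = 0.00802). Its second probe set differed by 0.17 and -0.12 and passed at neither time, so the probe sets of this gene disagree. Pes1 fell 3.05-fold at 5 days (adjusted p = 0.00191). The second probe set of Pes1 differed by -0.28 (adjusted p = 0.418 in limma with every probe set on its own).

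Among the others, Rrs1, which brings the 5S particle into the large subunit precursor, fell 3.37-fold at 1 day (adjusted p = 0.00396) and 4.48-fold at 5 days (adjusted p = 0.000447). Gnl3, nucleostemin, a GTPase known from stem and tumour cells, fell 2.51-fold (adjusted p = 0.0077) and 4.59-fold (adjusted p = 0.000227). Nop16 and Ppan fell 4.41-fold (adjusted p = 0.000178) and 4.20-fold (adjusted p = 0.000212) at 5 days. Nop2, an rRNA methyltransferase, fell 2.99-fold (adjusted p = 0.000253), and the helicase Ddx18 2.26-fold (adjusted p = 0.0014). Nip7 fell 2.64-fold at 1 day (adjusted p = 0.0195) and 3.72-fold at 5 days (adjusted p = 0.00166), with day 1 9A1 replicate 2 the lowest of all 12 arrays at 8.24. Noc3l fell late: it differed by -0.38 at 1 day (adjusted p = 0.225) and fell 1.76-fold from day 1 to day 5 (adjusted p = 0.0136), where the arrays did not overlap.

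The abundant nucleolar proteins fell in different steps. All 4 were lower at 5 days (median -1.91) and 3 at 1 day (median -0.86). Npm1 (1432416_a_at) encodes nucleophosmin, which forms the outer layer of the nucleolus. It was at 13.00 and 13.63 in basal 9A1, 13.83 and 13.80 in basal 14B3, 13.12 and 12.86 in day 1 9A1, 13.22 and 13.13 in day 1 14B3, 11.59 and 11.30 in day 5 9A1, and 11.67 and 11.57 in day 5 14B3. Day 1 overlapped basal only through basal 9A1 replicate 1, and day 5 lay more than a log2 unit below both. The difference was -0.48 at 1 day (SE 0.14, adjusted p = 0.0508), and -0.64 without that array (adjusted p = 0.00245) or -0.33 without basal 9A1 replicate 2 (adjusted p = 0.0735). It also passed without day 1 9A1 replicate 1 (adjusted p = 0.0333). From day 1 to day 5 Npm1 fell 2.92-fold (log2 -1.55, adjusted p = 0.000286), the largest fall of the 42 genes between the aggregates.

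Ncl (1415771_at), nucleolin, was at 12.79 and 13.26 in basal 9A1, 13.38 and 13.39 in basal 14B3, 12.56 and 12.40 in day 1 9A1, 12.72 and 12.64 in day 1 14B3, 11.55 and 11.31 in day 5 9A1, and 11.83 and 11.78 in day 5 14B3. The cultures were separate. It fell 1.54-fold at 1 day (log2 -0.62, SE 0.11, adjusted p = 0.00806) and a further 1.95-fold to day 5 (log2 -0.96, adjusted p = 0.000827). Npm1 and Ncl lie near the top of the array scale, where differences may be compressed, which was not tested.

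Mybbp1a (1423431_a_at), a MYB-binding protein of the nucleolus, was at 10.96 and 12.02 in basal 9A1, 12.25 and 12.33 in basal 14B3, 11.02 and 10.10 in day 1 9A1, 11.01 and 11.04 in day 1 14B3, 9.95 and 9.53 in day 5 9A1, and 10.16 and 9.98 in day 5 14B3. Basal 9A1 replicate 1 stood at the day 1 level. The falls were 2.14-fold at 1 day (adjusted p = 0.0238) and 3.97-fold at 5 days (log2 -1.99, SE 0.26, adjusted p = 0.000526). Ddx21, a helicase that binds polymerase I and II genes, fell early, 3.07-fold at 1 day (adjusted p = 0.0025), and the later difference was -0.21 (adjusted p = 0.609).

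Each line on its own, taken from the same fit with 2 arrays against 2, showed the fall at 5 days. In 14B3 the median difference was -1.86 and 41 of the 42 genes passed, beside 14.1% lower over all genes. In 9A1 it was -1.56 and 35 passed, beside 8.54%, the others being Bop1, Ddx18, Nop10, Nop14, Rrp12, Ubtf and Utp20. At 1 day the median was -1.28 in 14B3, with 25 called beside 5.17%. In 9A1 it was -0.92, with only Nop56 called beside 1.53%. At an unadjusted p under 0.05, 29 of the 42 were lower in 9A1 at 1 day, beside 1539 of all 15781 genes. Between day 1 and day 5, Ncl and Npm1 were called in both lines, with Noc3l and Nop56 added in 9A1 and Polr1c in 14B3, beside 3.76% of all genes in 9A1 and 3.14% in 14B3. These counts rest on the spread pooled over both lines. With each line fitted alone, 9A1 gave 0 genes at 1 day, 3 at 5 days and 0 between the aggregates, and 14B3 gave 40, 41 and 32.

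Whether the lines differ in this fall was tested as an interaction, and no gene of the 42 passed in limma for 1 day or for 5 days against basal. Of all 15781 genes, 0% and 0.0380% passed as higher. At an unadjusted p under 0.05, 3 and 0 of the 42 were higher, beside 213 and 299 of all genes. The median interaction was 0.40 at 1 day and 0.38 at 5 days, meaning a smaller fall in 9A1. The size and sign of these medians depended on single 9A1 arrays. Without basal 9A1 replicate 1 they were -0.02 and -0.04, and without basal 9A1 replicate 2 they were 0.79 and 0.74, with 2 genes called at 1 day (lowest adjusted p = 0.0301) and 0 at 5 days. At 1 day the median was 0.05 without day 1 9A1 replicate 1 and 0.66 without day 1 9A1 replicate 2, and at 5 days 0.14 without day 5 9A1 replicate 1. Averaged over cultures, all 42 genes were estimated lower in 9A1 than in 14B3, with a median of -0.37. None passed in limma, beside 0.133% of all genes called lower. At an unadjusted p under 0.05, 17 of the 42 were lower, beside 1024 of all 15781 genes. Without basal 9A1 replicate 1 the median was -0.26, with 0 called, and without basal 9A1 replicate 2 it was -0.50, with 11 called. Without day 1 9A1 replicate 1 it was -0.47, with 2 called.

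Other genes of ribosome synthesis, from longer lists chosen by function, fell in the same comparisons. Beside them, 8.80% of all genes were lower at 1 day and 18.5% at 5 days. Of 44 further small subunit factors, 24 fell at 1 day and 39 at 5 days, with 0 higher at either time and medians of -0.62 and -1.07. Dimt1, which dimethylates small subunit rRNA, fell 4.08-fold at 5 days (adjusted p = 0.000722), and Utp3 3.55-fold (adjusted p = 8.35e-05). Of 45 further large subunit factors, 25 fell at 1 day and 35 at 5 days, with medians of -0.74 and -1.09. The methyltransferase Ftsj3 fell 4.15-fold at 5 days (adjusted p = 0.000351), and Rrp15 4.10-fold (adjusted p = 0.000202). The 1 day counts of these lists ranged from 5 to 34 and from 7 to 36 with any 1 array left out. They were lowest when either basal 14B3 replicate 1 or day 1 14B3 replicate 2 was dropped, and fell by over 1.5 times without any other basal or day 1 14B3 array. The first also fell to 14 without basal 9A1 replicate 2 and to 13 without either day 5 14B3 array. Without both 9A1 arrays that stood apart they were 37 and 34.

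Sbds and Efl1 rose instead. Together they release the anti-association factor eIF6 from new large subunits in the cytoplasm, the last step before translation. Sbds was at 10.45 and 9.97 in basal 9A1, 9.93 and 9.99 in basal 14B3, 9.84 and 9.74 in day 1 9A1, 10.02 and 10.05 in day 1 14B3, 10.66 and 11.04 in day 5 9A1, and 10.86 and 10.95 in day 5 14B3. All day 5 arrays lay above all others, a rise of 1.73-fold over basal (adjusted p = 0.00239) and 1.96-fold over day 1 (adjusted p = 0.00205). Efl1, at 8.27 to 9.11 in basal culture and 9.43 to 10.07 at day 5, rose 1.93-fold over basal (adjusted p = 0.0137), a call lost with basal 14B3 replicate 1 or with day 5 9A1 replicate 2 dropped.

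Among 14 other polymerase I genes, 9 fell at 5 days and 1 rose, beside 18.5% lower and 16.9% higher over all genes. Tcof1, treacle, fell 3.28-fold (adjusted p = 0.000656) and Kdm2b, a histone demethylase found in nucleoli, 3.80-fold (adjusted p = 0.00323), while the related Kdm2a rose 1.36-fold (adjusted p = 0.0135), a call lost when any 1 of basal 14B3 replicate 2, day 5 9A1 replicate 2 and the day 5 14B3 arrays was dropped. Of 14 RNA exosome genes, which trim and degrade precursor RNA, 8 fell at 1 day and 9 at 5 days, beside 8.80% and 18.5% of all genes. The nuclease Dis3 fell 6.73-fold at 5 days (adjusted p = 0.000108) and the ring subunit Exosc8 5.07-fold (adjusted p = 0.000439), and the cofactor C1d rose 1.41-fold (adjusted p = 0.0127), a call lost when day 5 14B3 replicate 1 was dropped. Of 11 factors that assemble the guide particles, 9 fell at 1 day and 8 at 5 days, among them the ATPases Ruvbl1, 4.68-fold (adjusted p = 0.000281), and Ruvbl2, 4.25-fold (adjusted p = 0.000213). With any 1 array left out, the 1 day counts of these last lists ran from 4 to 12 and from 2 to 11. The exosome count was 4 or 5 without either basal 14B3 array or day 1 14B3 replicate 2, and the assembly count 2 to 5 without any 1 of the basal or day 1 14B3 arrays or basal 9A1 replicate 2.

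The cytosolic ribosomal proteins, which the factors above assemble, fell mainly between day 1 and day 5. Of 78 listed genes, 43 had a probe set assigned to 1 gene and 42 were tested. At 1 day 2 of the 42 had fallen, Rpl14 and Rpl8, beside 8.80% of all genes. The median difference was -0.06, against -1.12 for the 42 biogenesis genes. At 5 days 39 had fallen, with a median of -0.69, and 38 fell between day 1 and day 5, with a median of -0.63. The shares over all genes were 18.5% and 10.0%. The mean level of the 42 was 12.70 to 12.88 in basal culture, 12.56 to 12.77 at 1 day and 11.91 to 12.14 at 5 days. Day 5 was thus separate from both earlier cultures, and day 1 overlapped basal. Rpl14 fell furthest: it was at 10.22 and 10.02 in basal 9A1, 10.83 and 10.67 in basal 14B3, 9.54 and 9.27 in day 1 9A1, 10.16 and 10.02 in day 1 14B3, 7.69 and 7.17 in day 5 9A1, and 8.27 and 8.32 in day 5 14B3. That was a fall of 1.61-fold at 1 day (adjusted p = 0.0177, lost without any 1 of the basal or day 1 14B3 arrays) and 5.96-fold at 5 days (adjusted p = 2.97e-05). Rps25, the next largest, fell 4.08-fold at 5 days (adjusted p = 0.00128) after a difference of -0.74 at 1 day (adjusted p = 0.173). Most of these genes lie near the top of the array scale, where falls may be compressed. Neither that nor whether the lists differ was tested. The 1 day count was 0 to 7 with any 1 array left out, at 0 without any of the basal or day 1 14B3 arrays and at 7 without day 1 9A1 replicate 1.

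**Figure D3:**
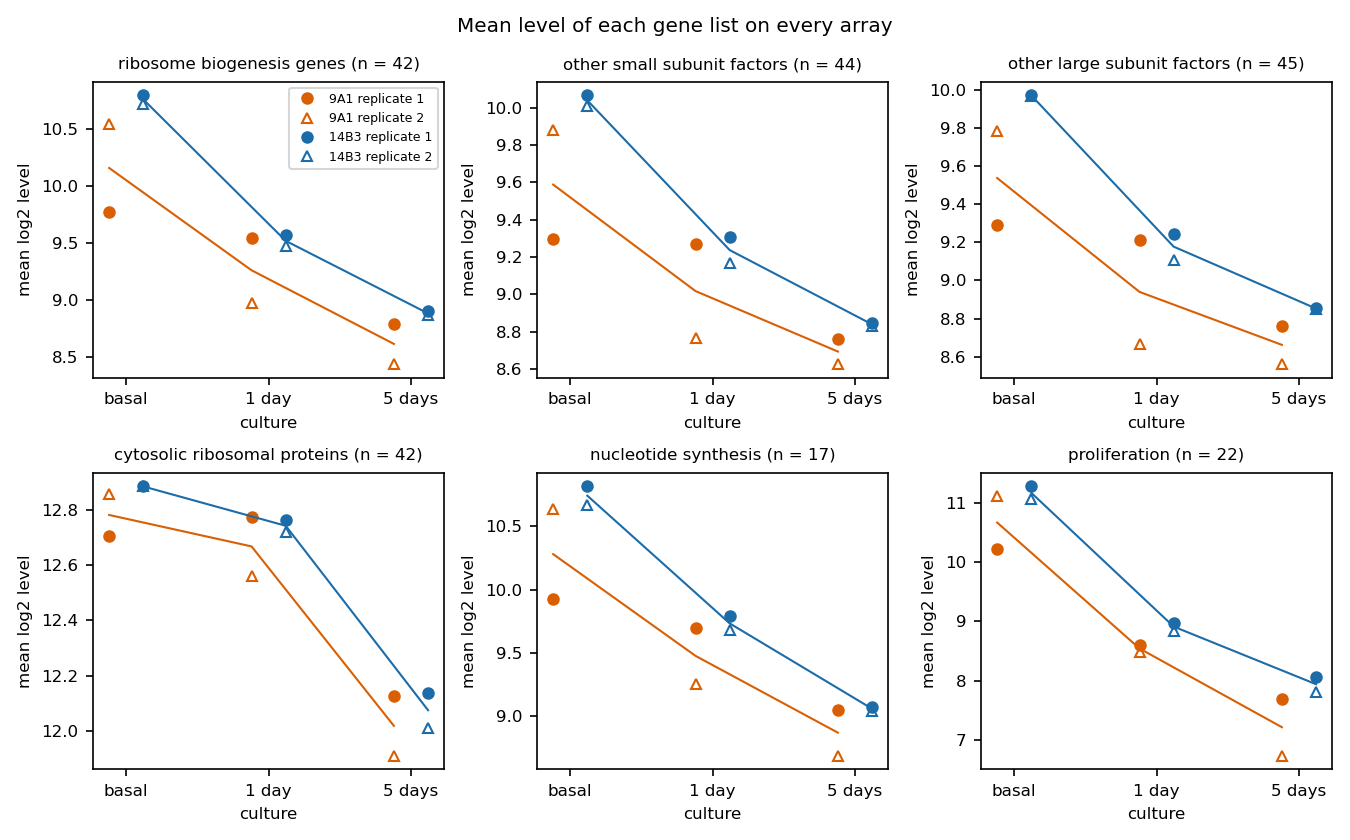
Each panel is 1 gene list and each point 1 array, giving the mean log2 level of the list's tested genes in basal, day 1 and day 5 cultures of 9A1 and 14B3. Lines join the means of the replicates, and each panel has its own scale. The ribosome biogenesis genes step down at both times and the ribosomal proteins mainly at day 5 (11.91 to 12.14), with basal 9A1 replicate 1 the lowest basal point in every panel.

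Genes that supply and accompany ribosome synthesis fell as well. Of 17 genes of nucleotide synthesis, 13 fell at 1 day and 16 at 5 days, beside 8.80% and 18.5% of all genes. The medians were -1.02 and -1.63. Cad, which starts pyrimidine synthesis, fell 7.42-fold at 5 days (adjusted p = 0.000795) and Ppat, which starts purine synthesis, 5.62-fold (adjusted p = 2.97e-05). The 1 day count was 6 or 7 without any 1 of the basal or day 1 14B3 arrays. Of 20 genes of RNA polymerase III, which makes 5S rRNA and tRNA, 10 fell at 5 days, beside 18.5% of all genes, with a median of -0.42. Gtf3a, the factor that binds the 5S gene, fell 2.27-fold (adjusted p = 0.00418), and Gtf3c4 1.98-fold (adjusted p = 0.00481). The 10 became 3 to 5 without basal 9A1 replicate 2 or any 1 of the basal 14B3 or day 5 arrays.

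**Figure D4:**
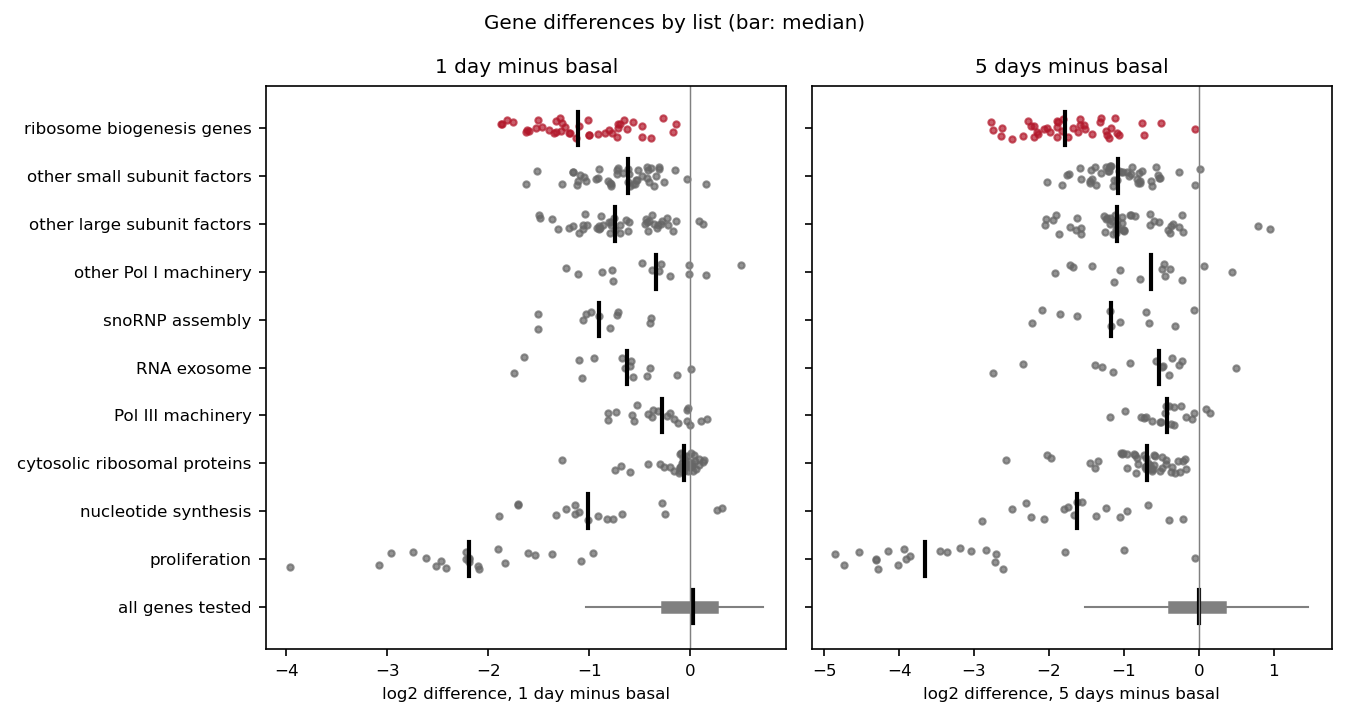
Points are single genes of each list and the bars their medians, as log2 differences from basal culture at 1 day (left) and 5 days (right). The lowest row gives the median, quartiles (box) and the 5th to 95th percentiles (line) of all 15781 genes. The median of the biogenesis genes was -1.12 at 1 day and -1.78 at 5 days, below those of the other ribosome lists and above that of the proliferation list, at -2.19 and -3.65.

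Proliferation genes moved with the ribosome biogenesis genes. All 22 tested were lower at 1 day, and 21 at 5 days, beside 8.80% and 18.5% of all genes. The medians were -2.19 and -3.65. Bub1, a mitotic checkpoint kinase, fell 28.9-fold at 5 days (adjusted p = 2.97e-05), and Rrm2, a ribonucleotide reductase subunit, 26.5-fold (adjusted p = 0.00022). The exception, Pcna, fell at 1 day, rose by 1.03 on the log2 scale to day 5 (adjusted p = 0.000453) and differed from basal by -0.05 at 5 days (adjusted p = 0.802). The mean of the list was 10.23 on basal 9A1 replicate 1, below the other basal arrays (up to 11.28). Hepatocyte markers went the other way: beside 5.25% and 16.9% of all genes, 2 of 12 rose at 1 day and 8 at 5 days. Their mean was 6.08 to 9.57 in basal culture, 7.60 to 7.83 at 1 day and 9.63 to 11.25 at 5 days. The part of these changes in the fall of the ribosome biogenesis genes was not tested.

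Of 13 genes of the MYC network, 3 fell at 1 day, and at 5 days 2 were lower and 1 higher than basal. The 5 day shares are below the 18.5% lower and 16.9% higher over all genes, and at 1 day 8.80% of all genes were lower, so the counts say little about this list. Myc itself, the activator, was at 10.71 and 11.05 in basal 9A1, 11.66 and 10.84 in basal 14B3, 8.94 and 8.02 in day 1 9A1, 8.58 and 8.20 in day 1 14B3, 8.55 and 7.92 in day 5 9A1, and 9.46 and 9.38 in day 5 14B3. All basal arrays lay above all aggregates. Myc fell 6.18-fold at 1 day (log2 -2.63, adjusted p = 0.000584) and was 4.72-fold below basal at 5 days (log2 -2.24, adjusted p = 0.000343). From day 1 to day 5 it differed by 0.39 (adjusted p = 0.375), while the biogenesis genes had a median of -0.71.

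Mycn, its paralogue, was at 8.74 and 9.60 in basal 9A1, 8.19 and 9.16 in basal 14B3, 10.01 and 8.97 in day 1 9A1, 9.86 and 9.70 in day 1 14B3, 8.20 and 7.83 in day 5 9A1, and 7.71 and 8.07 in day 5 14B3. Its mean was lowest at day 5. Basal culture overlapped both day 1 and day 5, the latter through basal 14B3 replicate 1. The 1 day difference from basal was 0.71 (adjusted p = 0.177), or 0.75 without both 9A1 arrays that stood apart. Mycn fell 3.21-fold from day 1 to day 5 (adjusted p = 0.00531). The fall of 1.96-fold from basal (adjusted p = 0.0345) was lost without basal 9A1 replicate 2 (adjusted p = 0.104) or basal 14B3 replicate 2 (adjusted p = 0.13), and without any 1 of the day 1 14B3 or day 5 arrays.

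The partners and antagonists moved apart. Max, the common partner, fell 1.95-fold at 1 day (adjusted p = 0.0132), a call lost with basal 14B3 replicate 1 or with day 1 14B3 replicate 2 left out, and rose 2.25-fold to day 5 (adjusted p = 0.00369). Max differed from basal by 0.21 at 5 days (adjusted p = 0.506), or by 0.42 without both 9A1 arrays that stood apart. Mlx, which pairs with the MXD proteins and with the glucose-sensing factors, rose 2.99-fold over basal at 5 days (adjusted p = 0.00198). At 1 day Mlx differed by 0.15 (adjusted p = 0.802), or by 0.59 without both of those arrays. Mxd1, an antagonist of MYC known from differentiating cells, was at 11.98 and 7.13 in basal 9A1, 7.57 and 7.46 in basal 14B3, 7.73 and 8.32 in day 1 9A1, 7.68 and 7.62 in day 1 14B3, 10.19 and 10.82 in day 5 9A1, and 10.56 and 10.68 in day 5 14B3. Basal 9A1 replicate 1 was the highest of all 12 arrays and the other basal arrays the lowest. The 5 day difference from basal was 2.03 (adjusted p = 0.0899), with 3.24 without that array (adjusted p = 4.93e-06) and 0.81 without basal 9A1 replicate 2 (adjusted p = 0.0149). Mxd1 rose 6.62-fold from day 1 to day 5 (adjusted p = 0.0437), a call lost without any 1 array other than the basal 9A1 arrays. Mxd3 fell 1.45-fold at 1 day (adjusted p = 0.042), a call lost without any 1 array other than the day 1 9A1 arrays. Mycl, Mxd4, Mxi1, Mnt, Mga, Mlxip and Zbtb17 passed in none of the 3 comparisons.

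**Figure D5:**
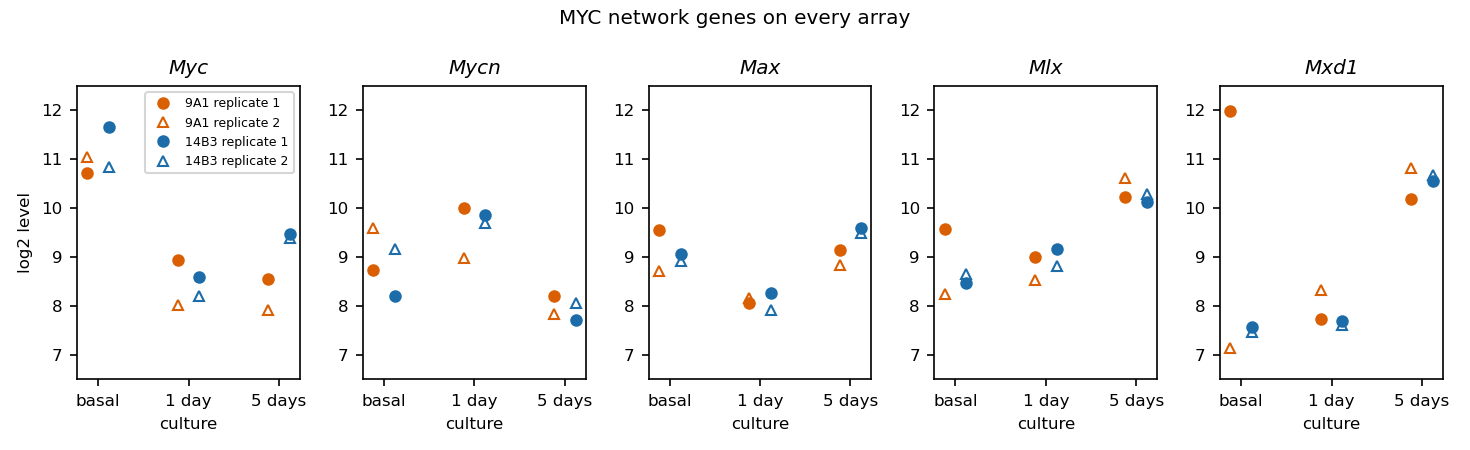
Log2 levels of Myc, Mycn, Max, Mlx and Mxd1 on each of the 12 arrays, with cultures along the horizontal axis, lines by colour and replicates by symbol. Myc drops between basal and day 1, Mycn between day 1 and day 5, and Mxd1 and Mlx are high at day 5, with 1 basal 9A1 array of Mxd1 at 11.98.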

How the data were processed

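The deposited values are log2 expression levels of 45101 Affymetrix mouse 430 2.0 probe sets, which the submitters' processing notes attribute to RMA and R 2.3.1. This method brings the arrays to a similar distribution, with array medians here from 6.09 to 6.24. Differences near the top of the array scale may be compressed, which was not tested. No detection calls were used here. GEO's platform annotation gave 34945 probe sets 1 gene, 932 several and 9160 none, with 64 controls, and symbols were updated through Entrez IDs for 34741. The probe set with the largest 12-array mean stood for each of the 18193 genes.

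Differences were tested with limma 3.58.1 in R 4.3.3: a mean for each of the 6 combinations of line and culture, empirical Bayes with a trend, and Benjamini-Hochberg adjustment over the 15781 genes at log2 5 or above on at least 2 arrays. Contrasts average the 2 lines, and the same fit gave within-line values and interactions. Figures were drawn with matplotlib 3.10.9. The scripts were tested on simulated data.

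The members and lists were chosen with earlier results of these data known. All 42 genes could be named. Values on every array are given, per role, for the 2 genes with the largest and the 1 with the smallest 5 day difference, and of other lists the 2 largest falls and rises that passed at 5 days are named. Rpl8, Pcna, Csf1r, Ptprc, Cdh5, Des, the keratins, Cdh1 and Hnf4a were singled out after their values were seen. Alternatives covered the filter, probe set choice, scaling, array weights, replicate number, single lines and left-out arrays. Leaving out both 9A1 arrays that stood apart was among them, and testing every probe set on its own was added after seeing the data.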

Additional observations from a re-analysis of the deposited data

Results flagged for a closer look

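Within the 4 arrays of each culture, 96 sets of levels were searched for 1 array far from the other 3, and 13 stood out by a gap to the nearest array beyond Dixon's limit for 4 values, which chance alone passes in about 1 of 20 sets. Basal 9A1 replicate 1 stood apart for Polr1a at 8.03 (others 9.04 to 9.25), Heatr1 at 8.49 (9.78 to 9.99) and Mxd1 at 11.98 (7.13 to 7.57). Day 1 9A1 replicate 2 stood apart for the mean of the ribosome biogenesis genes at 8.98 (9.47 to 9.57). On the same array Polr1a was at 7.56 (8.35 to 8.36), Heatr1 at 7.87 (8.45 to 8.52), Wdr12 at 7.60 (8.83 to 9.05), Mybbp1a at 10.10 (11.01 to 11.04) and Mxd1 at 8.32 (7.62 to 7.73). Day 5 9A1 replicate 2 stood apart for Gar1 at 7.35 (8.29 to 8.40) and Mlxip at 8.01 (8.53 to 8.55). Mga was high on basal 9A1 replicate 2 at 8.23 (7.32 to 7.35), and Mnt low on day 5 14B3 replicate 2 at 9.76 (9.89 to 9.90). Of the 13, 12 were on 9A1 arrays.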

How the results depend on the processing

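The direction of the member counts never turned in any setting run: 0 of the 42 genes were higher in any comparison of cultures. At 5 days against basal 41 genes passed in each setting except the 9A1 arrays fitted alone (3, with 2 arrays against 2) and every probe set on its own (35 genes with all probe sets lower). Besides Nop10, the genes with a probe set that did not pass there were Bop1, Ddx18, Heatr1, Ncl, Pes1 and Wdr75. At 1 day 31 passed, with 0 in 9A1 alone, 40 in 14B3 alone, 19 at an adjusted p under 0.01, and 19 to 39 with 1 array left out. Between day 1 and day 5, 15 passed, with 0 in 9A1 alone, 32 in 14B3 alone, 4 at an adjusted p under 0.01, 37 without both 9A1 arrays that stood apart, 8 with every probe set on its own, and 5 to 29 with 1 array left out. Between the lines 0 passed, with 1 without both arrays and 0 to 11 with 1 left out, and for the line difference in response 0 passed, with 0 to 2. The labels do not say that the replicate numbers pair arrays, and they were not taken as pairs: deviations of same-numbered arrays correlated between cultures at -0.303, -0.192 and 0.376 in 9A1 and -0.0969, -0.0715 and -0.0178 in 14B3, and between the lines at -0.3 in basal culture, 0.499 at day 1 and 0.126 at day 5. With the replicate number as a block the counts were 26, 41 and 11. Quantile normalization moved the split over all genes from 1388 lower and 829 higher to 1386 and 1282 at 1 day, and from 1582 and 1848 to 2077 and 1745 between day 1 and day 5. Nop10, which passed nowhere, changed sign at 5 days with median centring. Where no cause is named, the cause was not tested. With 2 replicates per line and culture, the number of arrays limits the precision, and p-values rest on a spread pooled over 6 groups.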
